A study of Saccharomyces cerevisiae with 46 samples.

Results

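*SPT4* (YGR063C) and *SPT5* (YML010W) are the budding yeast genes for the 2 subunits of the Spt4/5 complex, and they were taken by these row identifiers from 3 tables of normalized read counts, 1 for each RNA-seq comparison of the study, which list 5572, 4835 and 4835 genes. *SPT4* had a row in all 3 tables. *SPT5* was not analysed here, and no value of another row was used in its place, so the RNA of 1 of the 2 subunits is described. The question was how the RNA of a partner responds when the other partner is lost. Below, *SPT4* RNA is described after depletion of Spt5, which cannot be told apart from rapamycin, strain and length of treatment.

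Spt5 is the only elongation factor of RNA polymerase II (RNAPII) known to have counterparts in all domains of life (NusG in bacteria). It binds across the cleft of the polymerase, and its KOW domains and C-terminal repeats carry other factors, among them the capping enzymes and the Paf1 complex. Spt4 is a small zinc-finger protein that binds the NGN domain of Spt5. In budding yeast Spt5 is essential for growth and Spt4 is not.

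Total RNA was depleted of ribosomal RNA and sequenced in 10 libraries of 46 samples in the series. WT cells (BY4741 with *RPB3-3xFLAG*) and *spt4Δ* cells (*spt4Δ* with *RPB3-3xFLAG*) had 2 libraries each. The other strains were anchor-away strains. In this method a nuclear protein fused to FRB is drawn out of the nucleus when rapamycin ties it to a ribosomal protein fused to FKBP12. All of them carried *tor1-1*, *fpr1Δ*, *RPL13-2xFKBP12* and *RPB3-3xFLAG*, and in addition either *SPT4-FRB-eGFP* or *SPT5-FRB-eGFP*. The Spt4-FRB strain was treated with rapamycin (1 mg/ml in the labels) for 140 min (Spt4-AA, 2 libraries) and the Spt5-FRB strain for 180 min (Spt5-AA, 2 libraries). The DMSO group held 1 library of each of these strains, both treated for 120 min, and both anchor-away comparisons used these same DMSO libraries. No strain without FRB was treated with rapamycin for RNA-seq. Strain, rapamycin itself, length of treatment and depletion therefore cannot be told apart in these comparisons. *Schizosaccharomyces pombe* cells were added to all cultures before lysis. Apart from the DMSO group, whose libraries came from different strains, nothing in the labels says that the RNA-seq libraries of a group came from separate cultures. The p-values thus measure only the spread between these libraries, which in the DMSO group includes any difference between the strains.

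Between 798455 and 6814227 reads were recovered per library, and the Spt5-AA libraries were the smallest. Replicate 1 of *spt4Δ* stood apart from the other libraries of its table, with a median ratio to the mean library of 2.16 against 0.750 to 0.835. *FPR1*, which is deleted in the anchor-away strains, had 865 and 1918 reads in the WT libraries and between 1 and 17 reads in each of the 6 anchor-away libraries. Values are given on 2 scales. The deposited scale keeps the size factors in the tables, on which the median log2 fold change of all genes tested was 0.83 in *spt4Δ*, -0.28 in Spt4-AA and -1.84 in Spt5-AA. On the scale relative to the median gene this shift was taken out, so that a value of 0 means that a gene moved as the median gene did. In RNA of whole cultures, fewer cells and less RNA per cell cannot be told apart on either scale.

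In the R64 assembly *SPT4* occupies 617516 to 617824 of chromosome VII, on the minus strand. Its coding sequence is a single exon of 309 bases, or 102 codons and a stop, with no annotated gene overlapping it. *COX18* (616328 to 617278, minus strand) starts 237 bases downstream of it and *VHT1* (618077 to 619858, minus strand) ends 252 bases upstream of it. Short stretches from both ends of the reading frame are shown because the first holds the cysteine codons of the zinc-finger region and the second is where the FRB-eGFP tag is joined in the Spt4-FRB strain. Both were read from the RefSeq R64 genome and run 5′ to 3′ along the mRNA. In the first, VII:617735-617824, capitals mark 4 of the 6 cysteine codons of the gene, at codons 7, 10, 24 and 27. In the second, VII:617516-617575, capitals mark the stop codon.
SPT4 first bases: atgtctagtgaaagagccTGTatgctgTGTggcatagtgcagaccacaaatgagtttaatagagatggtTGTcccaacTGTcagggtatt
SPT4 last bases: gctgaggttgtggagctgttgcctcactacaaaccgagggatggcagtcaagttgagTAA

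*SPT5* lies on the plus strand of chromosome XIII from 247677 to 250868. Its coding sequence of 3192 bases, or 1063 codons and a stop, is again a single exon with no annotated gene overlapping it. The nearest genes are *RAD33*, 248 bases away, and *MRPL39*, 435 bases away.

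In unperturbed cells *SPT4* RNA was well above that of the median gene when reads were divided by the length of the coding sequence. Levels between genes and across tables were compared as RPM per kb (reads for each 1000000 reads on the genes listed in all 3 tables, divided by the kb of coding sequence), with 95% exact binomial intervals that cover counting error only. On this scale *SPT4* stood at 292 (268 to 318) and 305 (268 to 345) in the WT libraries, which is 5.65 and 6.12 times the median gene. It was higher than 86.9% and 87.1% of 4715 genes there. The level was 479 (427 to 535) in the Spt5-FRB strain with DMSO and 364 (317 to 417) in the Spt4-FRB strain with DMSO. The Spt4-AA libraries held 430 (379 to 485) and 450 (406 to 498), and the Spt5-AA libraries 207 (154 to 272) and 219 (173 to 274). From the highest to the lowest, the order was thus DMSO-treated Spt5-FRB, Spt4-AA, DMSO-treated Spt4-FRB, WT, Spt5-AA and *spt4Δ*. The counting intervals of Spt4-AA overlapped those of both DMSO libraries, those of both WT libraries overlapped that of DMSO-treated Spt4-FRB, and those of the Spt5-AA libraries reached just into those of WT. After depletion of Spt5, *SPT4* was still at 3.60 and 3.70 times the median gene and above 82.1% of genes or more on this scale. The rank depends on the division by length, and how reads were assigned to genes is not known here. Without that division, *SPT4* had 531 and 250 reads in WT, beside medians of 307 and 137 reads per gene. In Spt5-AA it had 51 and 77 reads, beside medians of 55 and 84. The levels in RPM per kb are a description with no test. They are shares of the reads of a library, so they do not show the overall loss of RNA on the deposited scale.

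**Figure D1:**
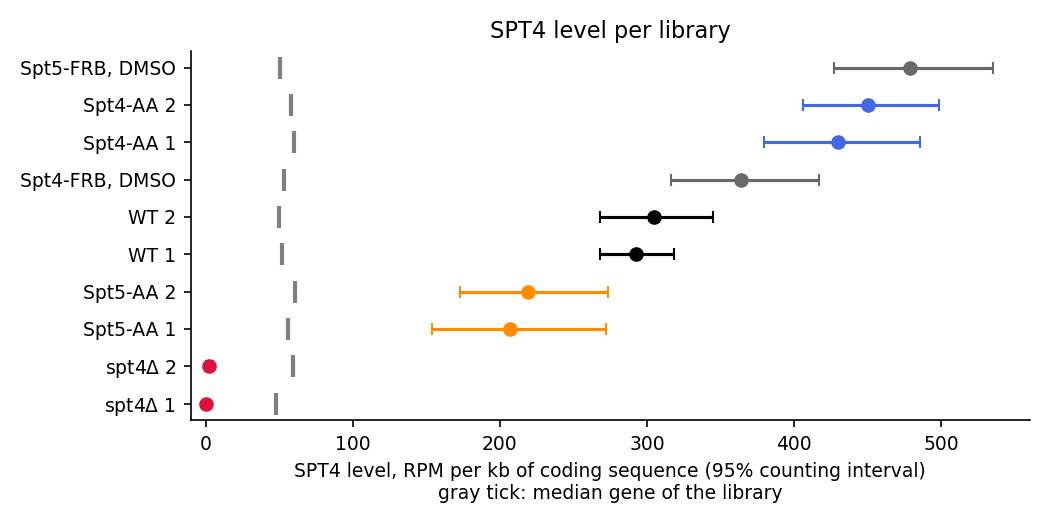
SPT4 level (RPM per kb of coding sequence) in each of the 10 RNA-seq libraries (points), with 95% exact binomial intervals for counting error, and the median gene of the same library (gray ticks). The Spt5-AA libraries, at 207 and 219, lie below the WT, DMSO and Spt4-AA libraries and above their own median genes, while the spt4Δ libraries lie at 0 and 2.10.

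The *SPT4* transcript was absent or nearly absent in *spt4Δ* cells, which checks the labels of these libraries at the deleted gene. The WT libraries had 531 and 250 reads on *SPT4* and the *spt4Δ* libraries had 0 and 4. In normalized counts this was 337 and 359 in WT against 0 and 2.36 in *spt4Δ*. A count of 0 in replicate 1 of *spt4Δ* allows up to 3 reads, or 5.52 normalized counts. The 4 reads of replicate 2 correspond to 2.10 RPM per kb (0.572 to 5.38), which is below the median gene (59.2). Summed over libraries, WT held 193 times the *SPT4* reads of *spt4Δ* on the deposited scale (95% counting interval 75.1 to 710) and 298 times on the scale relative to the median gene (116 to 1096). The log2 fold change relative to the median gene was -7.90 (SE 0.552, adjusted p = 5.03e-05, limma with Benjamini-Hochberg adjustment). It was the lowest of all 5278 genes tested.

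Few other genes passed the test in *spt4Δ*. Each group had 2 libraries, and replicate 1 of *spt4Δ* stood apart from replicate 2 (median ratio 2.16 against 0.835). A low number of calls therefore does not show that few genes changed. On the deposited scale 0.227% of genes were called higher and 0.0189% lower, the latter being *SPT4* alone among 5283 genes. Of 5278 genes tested relative to the median gene, 0.682% were called higher and 0.36% lower. At an unadjusted p under 0.05 there were 263 genes on the deposited scale and 565 relative to the median gene.

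Reads were found on the genes that flank the deleted *SPT4* in all 4 libraries. *COX18*, which encodes a protein needed to insert a subunit of cytochrome oxidase into the mitochondrial inner membrane, had 153 and 155 counts relative to the median gene in WT and 84.2 and 69.8 in *spt4Δ*. The groups did not overlap, but the log2 fold change of -0.997 (SE 0.243) did not pass the test (adjusted p = 0.0964, limma with Benjamini-Hochberg adjustment). It passed when either *spt4Δ* library was left out, with -1.11 (adjusted p = 0.00122) without replicate 1 and -0.87 (adjusted p = 9.45e-04) without replicate 2, in fits where the remaining library is assumed to vary like those of WT. On the deposited scale it was -0.16 (SE 0.71, adjusted p = 0.852), where replicate 1 of *spt4Δ* had 182 and replicate 2 had 58.3 normalized counts, on both sides of WT.

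*VHT1*, the plasma membrane transporter of biotin, was 223 and 215 in WT and 299 and 235 in *spt4Δ* relative to the median gene. Its log2 fold change was 0.28 (SE 0.226, adjusted p = 0.754). A further row, YGR064W, has an identifier that falls between those of *SPT4* and *VHT1* and no entry in the annotation, and was looked at after its values were seen. It had 38 and 21 reads in WT and 43 and 70 in *spt4Δ*, so reads remained on it in the libraries in which *SPT4* had 0 and 4. Its position is not known here, so whether it overlaps *SPT4* or lies beside it was not determined.

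When Spt4 itself was drawn out of the nucleus, no change of *SPT4* RNA was detected. With DMSO the deposited values were 265 normalized counts in the Spt4-FRB strain and 379 in the Spt5-FRB strain. After rapamycin they were 229 and 270 in the Spt4-AA libraries. Replicate 2 of Spt4-AA thus lay between the DMSO libraries and the groups overlapped. The log2 fold change was -0.35 (SE 0.213, 95% interval -0.82 to 0.12, adjusted p = 0.264, limma with Benjamini-Hochberg adjustment).

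Relative to the median gene the DMSO libraries were at 246 and 332 and the Spt4-AA libraries at 255 and 296, again overlapping. The log2 fold change on this scale was -0.06 (SE 0.195, 95% interval -0.51 to 0.40, adjusted p = 0.885). *SPT4* lay in the middle of the distribution, with 43.4% of the 4684 genes tested lower than it. For comparison, 3.03% of all genes were called higher and 18.8% lower on the deposited scale, and 4.72% higher and 4.23% lower relative to the median gene.

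When Spt5 was drawn out of the nucleus, *SPT4* RNA fell more than the RNA of the median gene. The deposited values were 290 and 417 normalized counts in the DMSO libraries and 43.3 and 47.1 in the Spt5-AA libraries. On this scale, which rests on size factors of unstated source, the Spt5-AA values were 12.2% and 13.3% of the DMSO mean. The groups lay far apart, and the Spt5-AA libraries were close to each other, with a ratio of 1.09 between them against 1.44 between the DMSO libraries.

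The log2 fold change on the deposited scale was -2.92 (SE 0.197, 95% interval -3.32 to -2.52, adjusted p = 3.94e-14, limma with Benjamini-Hochberg adjustment), a 7.57-fold fall (5.72 to 10.0). On this scale nearly every gene fell: 90.7% of the 4673 genes tested were called lower and 2.38% higher. A call for *SPT4* is therefore the common case, and its size has to be read against the median log2 fold change of -1.84.

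Relative to the median gene *SPT4* had 156 and 212 counts with DMSO and 86.8 and 84.8 in Spt5-AA, and the groups did not overlap. This left 47.1% and 46.0% of the DMSO mean. The log2 fold change was -1.08 (SE 0.178, 95% interval -1.46 to -0.70, adjusted p = 1.16e-04, limma with Benjamini-Hochberg adjustment), a 2.11-fold fall (1.62 to 2.74). Of all genes, 28.2% were called lower and 26.2% higher on this scale. *SPT4* was in the lower tail, since 10.4% of the 4665 genes tested had a lower log2 fold change.

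**Figure D2:**
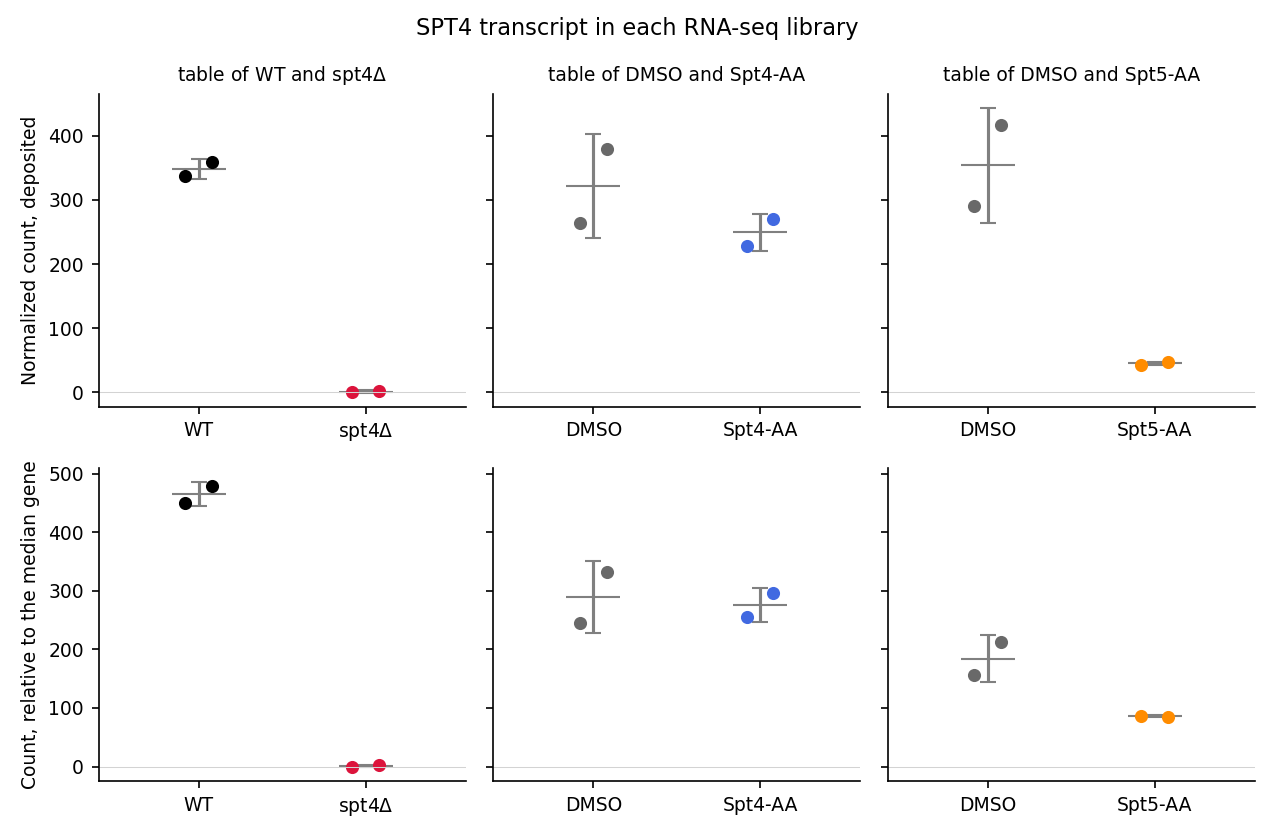
SPT4 in each library of the 3 tables (points) with the group mean and SD (n = 2), as deposited (top row, normalized counts) and relative to the median gene (bottom row, counts divided by the median ratio of the library). The DMSO points are the same libraries in both tables. Spt4-AA overlaps DMSO in both rows, while Spt5-AA lies below DMSO at 43.3 and 47.1 (top) and 86.8 and 84.8 (bottom).

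The DMSO group mixes a strain with a tagged *SPT4* gene and a strain with an untagged one, and these differed. With 210 reads in the Spt4-FRB strain and 308 in the Spt5-FRB strain, the tagged gene gave 0.739 times the RNA of the untagged gene relative to the median gene (95% counting interval 0.617 to 0.884). The log2 difference of -0.43 was lower than that of nearly all other genes, since 1.33% of the 2999 genes that averaged 100 counts or more were below it and the 5th to 95th percentiles ran from -0.32 to 0.30. With 1 library of each strain this compares libraries, and the difference between the strains was not tested.

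Each depletion was therefore also set against the DMSO library of its own strain, in fits where this single library is assumed to vary like the other group. For Spt4-AA, leaving out the Spt5-FRB library (DMSO replicate 2) moved the log2 fold change relative to the median gene from -0.06 to 0.15 (adjusted p = 0.884), and the deposited one to -0.09 (adjusted p = 0.899). For Spt5-AA, leaving out the Spt4-FRB library (DMSO replicate 1) moved it from -1.08 to -1.30 (adjusted p = 5.78e-06), and the deposited value to -3.18 (adjusted p = 5.40e-14). Against the DMSO library of the other strain alone, the value for Spt5-AA was -0.87 (adjusted p = 0.00483). The fall of *SPT4* RNA in Spt5-AA thus passed the test with either DMSO library.

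The difference in level between the depletions was tested directly, on the reads of the 6 anchor-away libraries scaled together by the median ratio. *SPT4* had 106 and 103 jointly scaled counts in Spt5-AA, 197 and 226 in Spt4-AA, and 191 and 259 with DMSO. The Spt5-AA libraries lay below all others, and Spt4-AA lay within the range of DMSO. *SPT4* was lower in Spt5-AA than in Spt4-AA by a log2 difference of -1.01 (SE 0.193, 95% interval -1.43 to -0.59, adjusted p = 0.00171, limma with Benjamini-Hochberg adjustment).

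In this contrast 19.5% of the 4696 genes tested were called lower and 16.5% higher, and 6.77% lay below *SPT4*. The Spt4-AA libraries carry the tagged *SPT4* gene and the Spt5-AA libraries the untagged one, and the length of treatment differed too (140 and 180 min). Neither can be told apart from the depletion in this contrast.

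**Figure D3:**
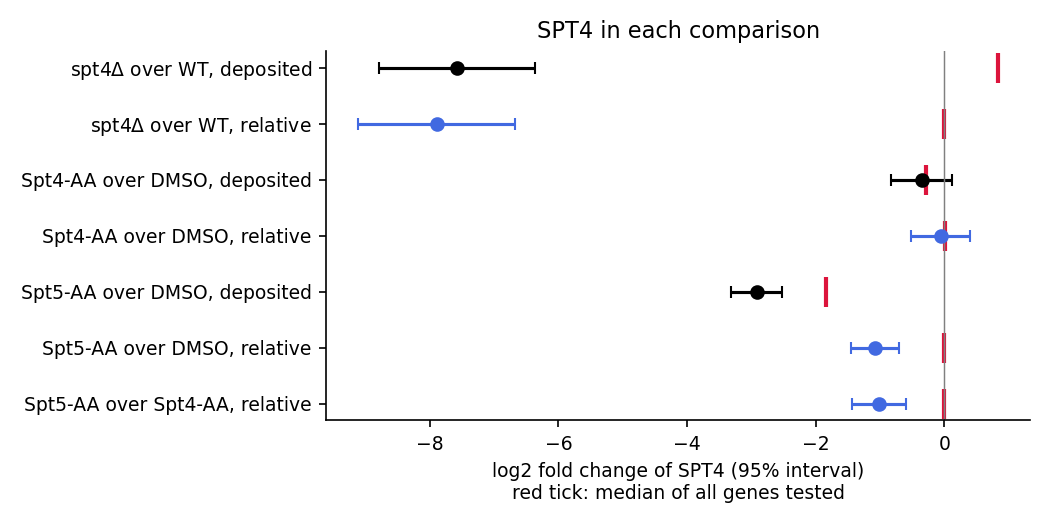
Log2 fold change of SPT4 (points, with 95% intervals from limma) in the 3 comparisons on both scales and in the direct contrast of the depletions, with the median of all genes tested (red ticks). SPT4 lies close to the median gene in Spt4-AA and lies about 1 log2 unit below it in Spt5-AA, at -2.92 against -1.84 as deposited and at -1.08 relative to the median gene.

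**Figure D4:**
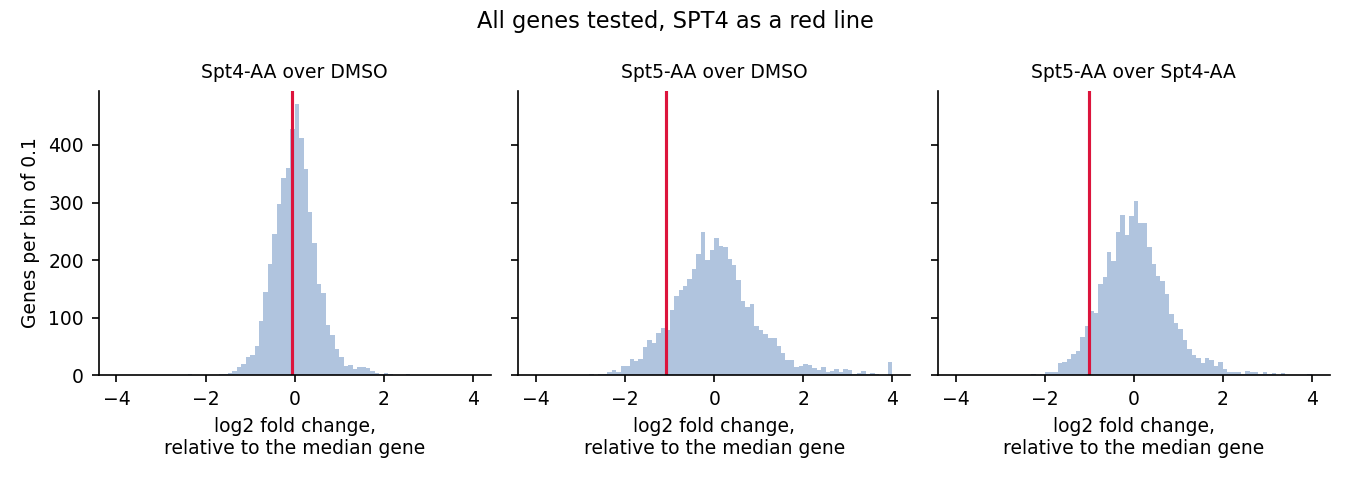
Number of genes per bin of 0.1 in log2 fold change relative to the median gene, for Spt4-AA over DMSO, Spt5-AA over DMSO and Spt5-AA over Spt4-AA, with values past 4 placed in the end bins and SPT4 as a red line. SPT4 has 43.4%, 10.4% and 6.77% of genes below it.

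*VHT1*, upstream of *SPT4* on the same strand, rose relative to the median gene in Spt5-AA, where *SPT4* fell. Relative to the median gene it was at 46.1 and 49.6 counts with DMSO and at 128 and 134 in Spt5-AA, with no overlap. Its log2 fold change was 1.43 (SE 0.182, adjusted p = 9.15e-06, limma with Benjamini-Hochberg adjustment) on this scale and -0.40 (SE 0.212, adjusted p = 0.0719) as deposited. In Spt4-AA it was 0.76 relative to the median gene (SE 0.174, adjusted p = 0.0421) and 0.47 as deposited (adjusted p = 0.11), and the former call was lost when either DMSO library was left out (adjusted p = 0.343 without replicate 1 and 0.261 without replicate 2) and in DESeq2 (adjusted p = 0.107). *COX18* was not analysed in the anchor-away tables.

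The genes beside *SPT5* were as follows in Spt5-AA. *RAD33*, a subunit of the nucleotide excision repair factor that also holds Rad4 and Rad23, was 0.76 relative to the median gene (SE 0.232, adjusted p = 0.0117, limma with Benjamini-Hochberg adjustment) and -1.06 as deposited (adjusted p = 3.85e-04). Without DMSO replicate 2 the relative value was 0.63 (adjusted p = 0.124), and in DESeq2 it was 0.80 (adjusted p = 0.0734). *MRPL39*, a protein of the large subunit of the mitochondrial ribosome, was 0.29 relative to the median gene (SE 0.204, adjusted p = 0.256) and -1.55 as deposited (adjusted p = 2.60e-07).

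The 5 genes whose change was most like that of *SPT4* were found by the root mean square difference in the log2 change of each of the 4 rapamycin libraries over the mean of the DMSO libraries, relative to the median gene, among 3615 genes. Since both depletions share their DMSO libraries, this is a description over 4 libraries. *SPT4* itself changed by -0.19 and 0.05 in the Spt4-AA libraries and by -1.07 and -1.11 in the Spt5-AA libraries. *ERG24*, a sterol reductase of ergosterol synthesis, was closest, at 0.0401, with -0.26 and 0.04 in Spt4-AA and -1.03 and -1.11 in Spt5-AA. *PMT2*, a protein mannosyltransferase of the endoplasmic reticulum, followed at 0.0597.

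*TRP4*, an enzyme of tryptophan synthesis, was at 0.0673 and *GCN3*, a subunit of the translation factor eIF2B, at 0.0772. *AIM20* was the fifth, at 0.0878. Over all 3615 genes the 1st percentile of this difference was 0.16 and the median 0.764.

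Of 28 genes for other factors on the elongating polymerase and for subunits found only in RNAPII, a list chosen with earlier results of these data known, 27 were tested in *spt4Δ*, 25 in Spt4-AA and, relative to the median gene, 26 in Spt5-AA. *RPO21*, the largest subunit, was not analysed here, nor was *RTF1* in the anchor-away tables. None of the 27 was called in *spt4Δ* by limma or edgeR on either scale or by DESeq2, and at an unadjusted p under 0.05 limma had 0 as deposited and 1, lower, relative to the median gene. Their median log2 fold change was -0.03 relative to the median gene, beside -0.01 for all genes. In Spt4-AA 6 of 25 were called lower and 0 higher as deposited, beside 18.8% and 3.03% of all genes, with a median of -0.23 beside -0.28. Once scaled to the median gene, 1 of 25 was called lower and 0 higher, beside 4.23% and 4.72% of all genes, with a median of 0.07 beside 0.01. At an unadjusted p under 0.05 these numbers were 4 lower and 3 higher, and both edgeR and DESeq2 called 1 gene higher.

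The 1 gene that limma called lower relative to the median gene in Spt4-AA was *SET2*, the methyltransferase of lysine 36 of histone H3. It was at -0.62 on this scale (SE 0.148, adjusted p = 0.0459, limma with Benjamini-Hochberg adjustment) and -0.91 as deposited (SE 0.178, adjusted p = 0.00753). The relative call was lost without DMSO replicate 1 (adjusted p = 0.37) or 2 (adjusted p = 0.45), in DESeq2 (adjusted p = 0.0505) and with libraries scaled to the same total (adjusted p = 0.0685).

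In Spt5-AA all 25 list genes tested on the deposited scale were called lower, as were 90.7% of all genes, between -3.55 and -1.01, with a median of -1.92 beside -1.84 for all genes. They spread to both sides of the median gene, with 6 of 26 called higher and 6 lower on that scale, beside 26.2% and 28.2% of all genes. Among the 6, *CTK3*, reached the minimum mean only through its Spt5-AA libraries and was not tested as deposited. Without it 5 of 25 were called higher and 6 lower, with a median of -0.08 beside 0.00 for all genes. *SPT4*, at -1.08, was lower than most of them. In the direct contrast of the depletions 4 of 26 were called higher and 6 lower, or 3 and 6 of 25 without *CTK3*, beside 16.5% and 19.5% of all genes. These shares were near those of all genes.

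Among the RNAPII subunits 2 of 6 were called lower relative to the median gene and 0 higher, beside 28.2% and 26.2% of all genes. *RPB4*, which forms the stalk of the polymerase with Rpb7, had 483 and 542 counts with DMSO and 160 and 154 in Spt5-AA relative to the median gene. Its log2 fold change was -1.70 (SE 0.139, adjusted p = 9.87e-08, limma with Benjamini-Hochberg adjustment) on this scale and -3.55 as deposited, the lowest of the list on both scales. *RPB9*, a subunit that contributes to transcript fidelity and start site choice, had 298 and 323 counts with DMSO and 121 and 122 in Spt5-AA, a log2 fold change of -1.35 (SE 0.145, adjusted p = 1.82e-06), and -3.19 as deposited. In both genes the groups were well apart.

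Of the other elongation factors *SET2* fell by 1.13 on the log2 scale relative to the median gene, from 344 and 373 counts to 170 and 156, and by 2.98 as deposited. *ELF1*, a small factor that binds the polymerase beside Spt4/5, was at -0.73. *CHD1*, a chromatin remodeller, went from 254 and 282 counts to 477 and 491, a log2 fold change of 0.85 (SE 0.135, adjusted p = 8.15e-05, limma with Benjamini-Hochberg adjustment) relative to the median gene and of -1.01 as deposited, so its direction depended on the scale.

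The histone chaperone genes *POB3* and *SPT16*, which encode the subunits of FACT, were called higher relative to the median gene, at 0.75 and 0.65, and lower as deposited, at -1.11 and -1.21. In Spt4-AA they were at 0.44 (adjusted p = 0.112, limma) and 0.69 (adjusted p = 0.0517) relative to the median gene. The direct contrast of the depletions called neither, at 0.32 (adjusted p = 0.179, limma) for *POB3* and -0.03 (adjusted p = 0.912) for *SPT16*. *SPT6* and *SPN1* were not called relative to the median gene in Spt5-AA. In the Paf1 complex *CTR9* was at 0.81 and *CDC73* at -0.64 relative to the median gene, with -1.04 and -2.49 as deposited. Of the kinase genes *SGV1* was called higher relative to the median gene, at 0.46. *CTK3* had 6 reads in each DMSO library and 11 and 18 in Spt5-AA, and since its mean over the groups (4.30 counts with DMSO and 19.3 in Spt5-AA relative to the median gene) passed the minimum only through the group where it was high, its log2 fold change of 1.94 is given as a description. *SGV1* was not called in DESeq2 (adjusted p = 0.0953) or without DMSO replicate 1 (adjusted p = 0.092) or 2 (adjusted p = 0.208). Of the capping enzyme genes *ABD1* was called lower, at -0.39, and its call was lost without DMSO replicate 1 (adjusted p = 0.137) or 2 (adjusted p = 0.244), in DESeq2 (adjusted p = 0.147) and with the same total in each library (adjusted p = 0.123). *SPT16*, *CDC73*, *SGV1*, *CTK3*, *ABD1* and *ELF1* were named after their values were seen.

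**Figure D5:**
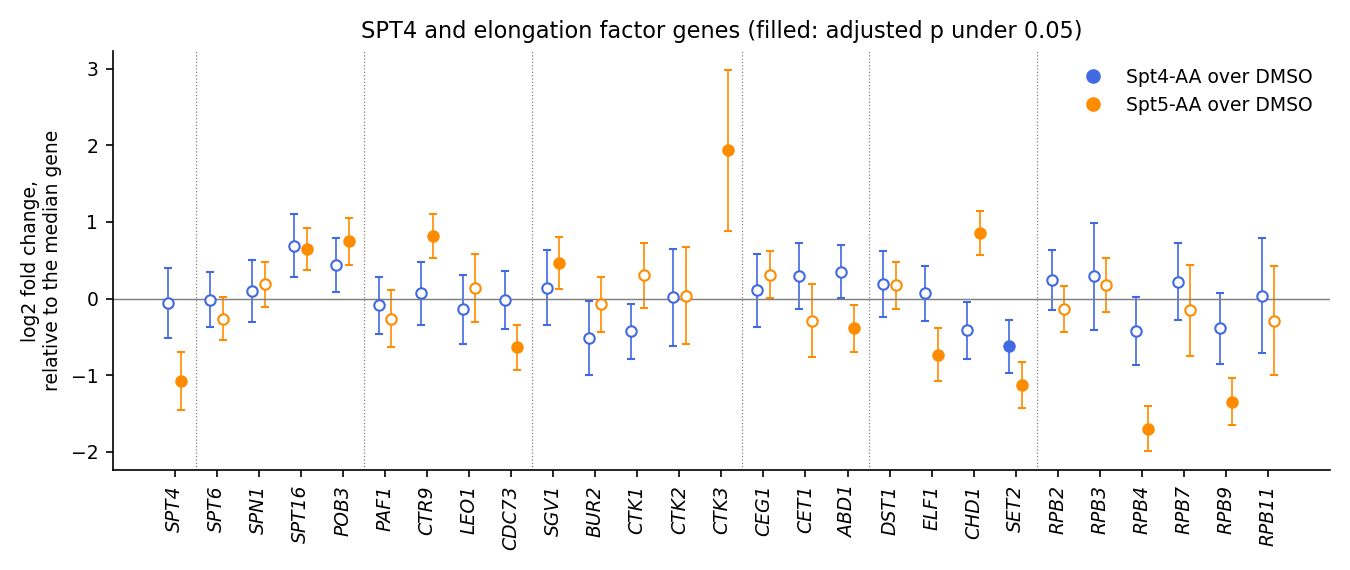
Log2 fold change relative to the median gene (points, with 95% intervals from limma, n = 2 libraries per group) of SPT4 and the elongation factor genes in Spt4-AA and Spt5-AA over DMSO, in the order of their roles (dotted lines between histone chaperones, Paf1 complex, kinases, capping enzymes, other factors and RNAPII subunits), with filled points where the adjusted p was under 0.05. SPT4 is unfilled near 0 in Spt4-AA and filled at -1.08 in Spt5-AA, where 6 list genes lie above 0 and 6 below it with filled points, CTK3 being tested only through its high group.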

How the data were processed

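The authors deposited 3 tables of normalized counts, a signal in which the reads of each gene were divided by 1 factor per library, and 3 tables of their own DESeq2 comparisons (means, fold changes and p-values), which were not used. The labels name Trim Galore, TopHat and DESeq2. Counter, annotation, build and the source of the factors for RNA-seq are not given in the sources used here. The deposited values were whole multiples of the value of 1 read (100% within 0.01 reads), and reads were recovered from them. The DMSO reads were identical in both anchor-away tables for 4835 genes.

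The main test was limma 3.58.1 in R 4.3.3, two-sided and with its trend option, applied to log2 of the normalized count plus 1 (which understates changes of low genes). Genes averaging under 10 normalized counts were left out, p-values were adjusted by Benjamini-Hochberg over the rest, and an adjusted p below 0.05 was taken as a call. The table of each comparison was fitted alone, as deposited and after division by the median ratio of each library. The direct contrast used recovered reads of the 6 anchor-away libraries. The test was also run on simulated counts with a fixed dispersion. These had the same spread in every library and no mixture of control strains, so they do not check the test for such features of the data. Intervals are 95% and limits for a count of 0 are 3 counts, both for counting error only.

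Alternatives were pseudocounts of 0.1 and 10, no filter or a minimum mean of 100, each library left out, the same total, edgeR 4.0.16, DESeq2 1.42.0 and the replicate number as a block. Named were *SPT4*, *SPT5*, their neighbours, *FPR1*, the listed elongation genes called on both scales in a comparison (at most 6, by size relative to the median gene) and the 5 genes most like *SPT4* with a mean of at least 50 in each of the 3 tables. Members, lists and tests were chosen with earlier results of these data known. Python 3.11.15, numpy 2.4.6, pandas 2.3.3 and scipy 1.17.1 were used.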

Additional observations from a re-analysis of the deposited data

Results flagged for a closer look

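The *SPT4* transcript was lower in Spt5-AA than in Spt4-AA. The test of this difference in level gave a log2 difference of -1.01 between Spt5-AA and Spt4-AA relative to the median gene (95% interval -1.43 to -0.59, adjusted p = 0.00171, limma with Benjamini-Hochberg adjustment). Both Spt5-AA libraries were lower than both Spt4-AA libraries. The DMSO libraries cancel in this contrast, so a difference in response from the DMSO level of each strain was not tested. Over its 12 alternatives the adjusted p ranged from 5.92e-04 to 0.0231. Strain, the tag on *SPT4* and the length of treatment differ between these groups and cannot be told apart from the depletion.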

How the results depend on the processing

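Of 76 alternatives for the 7 results on *SPT4*, 72 kept both direction and side of the threshold. The exceptions were all in Spt4-AA. Relative to the median gene its log2 fold change of -0.06 was 0.076 with the same total in each library, 0.15 without DMSO replicate 2 and 0.05 without Spt4-AA replicate 1, and the range over libraries left out was -0.28 to 0.15, with no call. As deposited it ranged from -0.61 to -0.092, and without Spt4-AA replicate 2 it was -0.47 and was called (adjusted p = 0.0324, limma with Benjamini-Hochberg adjustment). The cause was not tested. In *spt4Δ* the value moved with the pseudocount, from -9.46 (0.1) to -5.01 (10) as deposited and from -9.75 to -5.39 relative to the median gene, and without replicate 1 of *spt4Δ* it was -6.70 and -6.91.

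Counts of calls over all genes depended on single libraries. In *spt4Δ* they were 13 as deposited and 1 to 4988 with a library left out, and 55 relative to the median gene and 16 to 1776. In Spt4-AA they were 1022 and 4 to 1730, and 419 and 53 to 1647. A mean of at least 100 gave 3 for *spt4Δ* as deposited, and 2597 in place of 4351 and 1622 in place of 2538 for Spt5-AA. The direct contrast called 1693 genes, and 1122 without replicate 1 of Spt5-AA. The same total gave 14 for *spt4Δ* and 671 for Spt4-AA relative to the median gene, and DESeq2 gave 108 for *spt4Δ*. Of the elongation genes in Spt4-AA, the same total called 2 higher and 0 lower, and edgeR with TMM called 1 higher.

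The labels give replicate numbers but no shared batch. Deviations of same-numbered libraries correlated at -0.373 for WT and *spt4Δ* (4120 genes) and at 0.196 for the rapamycin groups (2554 genes). With the replicate block, *SPT4* was -7.58 as deposited and -7.90 relative to the median gene in *spt4Δ* and -1.01 in the direct contrast, and 10, 90 and 1573 genes were called. The crossed pairing of WT and *spt4Δ*, chosen after the data were examined, called 7 genes as deposited and 267 relative to the median gene. Depth limits *SPT4* most in Spt5-AA, with 51 and 77 reads.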
